A study of Mus musculus with 6 samples.

Results

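CXC chemokines are small secreted proteins that steer leukocytes through G protein-coupled receptors, and 10 of them were followed here in the mouse lung: Cxcl1, Cxcl2, Cxcl5, Cxcl9, Cxcl10, Cxcl12, Cxcl13, Cxcl14, Cxcl15 and Cxcl16. They were chosen by gene symbol, and a member counted as measured when its probe had a value on at least 4 of 6 arrays. Each of the 10 had 1 probe, and 9 of the 10 were measured, among 9774 genes in all. The probe of Cxcl10 had no value on any array, so that member has no result.

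The study compared lungs of 6 C57 mice that were sensitized to ovalbumin (OVA) and then challenged with it, a model of allergic airway inflammation, with control C57 mice. Each two-colour array carried amplified lung RNA of 1 OVA mouse and, in the second channel, a single pool of amplified lung RNA from control mice. Not given in the sources used here are substrain, sex, age, OVA dose, challenge schedule, the treatment of the controls and how many mice the pool held. The values are log ratios with the sign in which they were deposited, read here as log2. Titles name the OVA mouse first, but neither the dyes nor the order of the ratio is stated, so no sign is assigned to the OVA mice and sizes are given as folds apart from the pool. The base of the logarithm is not stated, and a natural logarithm would make the folds larger. Every array used the same pool, which therefore counts as 1 control sample, and no test holds the spread between control mice. No dye swap is stated, and a dye effect of a single probe and a difference from the pool cannot be told apart.

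The ligands differ in what they attract. Cxcl9 and Cxcl10 are induced by interferon-gamma and bind CXCR3 on activated T cells and NK cells. Cxcl1, Cxcl2 and Cxcl5 carry a Glu-Leu-Arg (ELR) motif before the paired cysteines and recruit neutrophils through CXCR2, and Cxcl15 (lungkine) is an ELR chemokine made mainly by lung epithelium. Cxcl12 (ligand of CXCR4), Cxcl13 (ligand of CXCR5 on B cells) and Cxcl14 are made in resting tissue, and Cxcl16 is a transmembrane ligand of CXCR6 that also acts as a scavenger receptor.

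Upstream sequences are shown with matches to a short motif, which was written with these sequences in view. RefSeq's table (GRCm38.p6) held a promoter for 8 of the 10 members, and none for Cxcl5 and Cxcl16. The 250 bases before the start of 4 of them follow, 5′ to 3′ on the strand of the gene. Capitals mark matches on either strand to GGGNNTTCC or to the same letters with 1 more N in the middle, short and long forms of the site bound by NF-kB, and overlapping matches run together.
Cxcl9, chr5:92328080-92328329, minus strand: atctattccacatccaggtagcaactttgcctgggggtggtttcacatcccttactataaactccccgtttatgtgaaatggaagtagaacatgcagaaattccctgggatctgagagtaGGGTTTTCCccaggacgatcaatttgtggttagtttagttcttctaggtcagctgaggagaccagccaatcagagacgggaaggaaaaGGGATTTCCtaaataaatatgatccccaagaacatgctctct
Cxcl1, chr5:90890995-90891244, plus strand: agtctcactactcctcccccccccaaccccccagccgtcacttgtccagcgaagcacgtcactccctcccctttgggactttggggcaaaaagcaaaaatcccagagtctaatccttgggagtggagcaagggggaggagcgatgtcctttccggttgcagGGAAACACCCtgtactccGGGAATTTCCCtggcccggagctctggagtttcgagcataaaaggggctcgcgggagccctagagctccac
Cxcl2, chr5:90903649-90903898, plus strand: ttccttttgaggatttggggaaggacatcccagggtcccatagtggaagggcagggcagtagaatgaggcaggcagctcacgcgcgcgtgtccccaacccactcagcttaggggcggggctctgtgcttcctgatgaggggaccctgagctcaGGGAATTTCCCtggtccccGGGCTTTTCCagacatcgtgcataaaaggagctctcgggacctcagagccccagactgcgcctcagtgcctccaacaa
Cxcl15, chr5:90794284-90794533, plus strand: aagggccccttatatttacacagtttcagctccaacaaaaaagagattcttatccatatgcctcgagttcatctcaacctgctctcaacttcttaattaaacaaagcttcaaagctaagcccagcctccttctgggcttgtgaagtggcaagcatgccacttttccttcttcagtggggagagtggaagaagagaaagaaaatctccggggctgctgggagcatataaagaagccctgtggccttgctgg

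Cxcl1 and Cxcl2 share the run GGGAATTTCCC upstream of their starts. Its plus-strand match begins 71 bases before the start of Cxcl1 and 97 bases before that of Cxcl2. The matches in Cxcl9 begin 130 and 42 bases before its start. Cxcl10, which has no ratio here, held matches too, and an interferon-stimulated response element (GAAA on either side of NN) as GAAAGTGAAA, 213 bases upstream. The short form occurred in 4.98% and the long form in 4.65% of 32851 windows of this length, and either in 8.26%, and in those of Cxcl9, Cxcl10, Cxcl1 and Cxcl2. Neither form was found in the windows of Cxcl12, Cxcl13, Cxcl14 and Cxcl15. That element was in 2.98% of windows, and among the members also in that of Cxcl14 (GAAACAGAAA). The palindrome TTCNNNGAA of STAT factors was in 7.02% of windows, and among the members only in that of Cxcl14 (TTCTGAGAA). A match is a run of letters and no measure of binding, and these patterns were written with the sequences in view.

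Of the 9 measured members, 8 had a negative and 1 a positive mean ratio, and 5 passed the test against the pool, 4 negative and 1 positive. The test was limma's on all 11629 measured probes, with Benjamini-Hochberg adjustment at 0.05, and it called 24.4% of probes, 12.3% negative and 12% positive. Cxcl9, Cxcl1 and Cxcl15 passed and were more than 2-fold apart from the pool in their means, against 1.5% of probes (1.53% whatever their p). By unadjusted p under 0.05 the members numbered 8 of 9, against 39.2% of probes. Of 7 members measured in all mice, 6 had 1 sign throughout, against 30.2% of such probes, and 5 were negative throughout, against 14.3%. The median of the members' mean ratios was -0.57, and that of all probes -0.0033. The members are few and were picked with earlier results known, so these counts describe them and carry no test of their own.

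**Figure D1:**
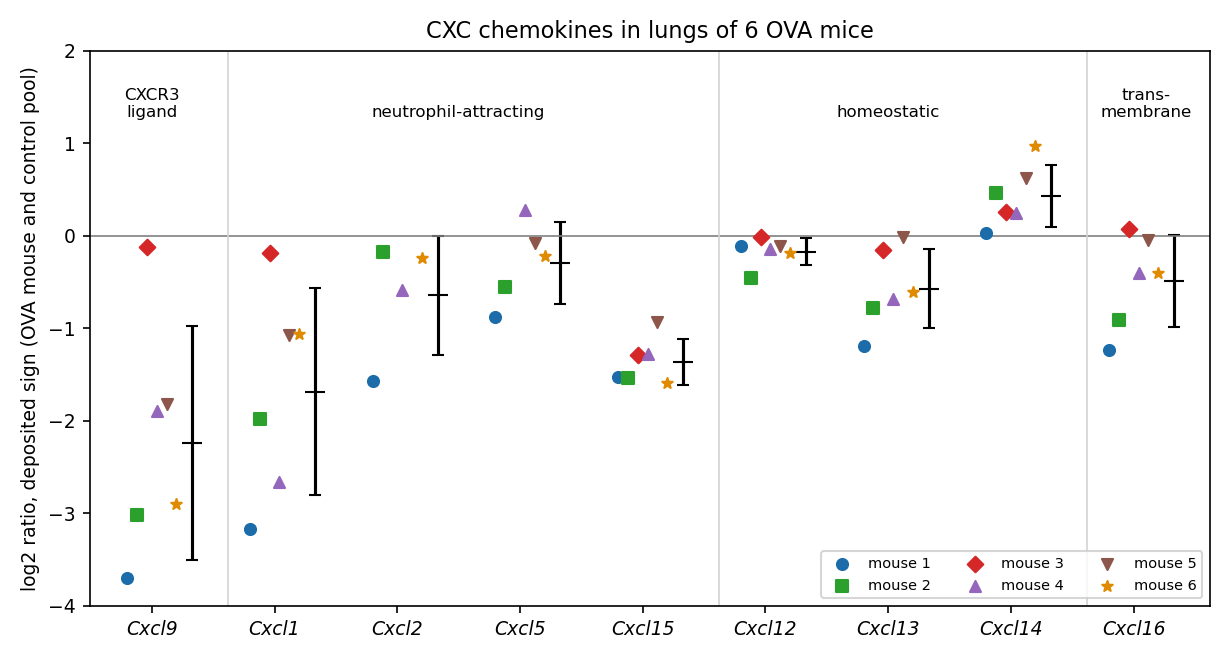
Log2 ratio (vertical axis, deposited sign) of each measured CXC chemokine in each of the 6 OVA mice (symbols), ordered by role, with the mean and SD over mice as black bars. Cxcl9 and Cxcl1 spread from about 0 in mouse 3 to -3.70 and -3.17 in mouse 1, whereas Cxcl15 stays between -1.59 and -0.94.

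The array of mouse 3 stood apart before any chemokine is considered. The SD of its ratios was 0.21, against 0.32 to 0.47 on the other arrays, and of its 10844 tested probes, 14 were 2-fold or more apart from the pool with a negative ratio and 13 with a positive one. Probes that were 2-fold or more apart in the mean of the other 5 mice (234 in all) had in mouse 3 a median of 5.66% of that mean. Members measured in it are therefore given with and without this mouse. Ratios to a pool do not show whether the tissue was lung. Of 10 epithelial markers, 9 were on the array and 7 were measured in all mice, among them Sftpc, Scgb1a1 and Ager. Having a value does not identify the tissue. Of all 17280 probes, 8663 had values on all arrays, and so did 5 of 7 heart muscle markers on the array. Of the 8 epithelial markers tested, 5 passed, 3 with negative and 2 with positive means, 62.5% against 24.4% of all probes.

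Cxcl9, the one CXCR3 ligand among the members with a value, had the largest ratio of the 9. It was at -3.70, -3.02, -0.12, -1.89, -1.82 and -2.90 in mice 1 to 6. All were negative, 5 of them more than 3-fold apart from the pool, and mouse 3 lay next to 0. The mean was -2.24 ± 1.26 (SD, n = 6), 4.73-fold apart (limma, adjusted p = 0.0116), and only 12 of the 11629 probes had a lower mean. Without mouse 3 it was -2.67, 6.35-fold apart (adjusted p = 0.0021). Cxcl9 kept its call when any 1 mouse was left out, with a highest adjusted p of 0.0432, and lost it with unmoderated variance (0.0528).

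Among neutrophil-attracting members, Cxcl1 (KC), a main CXCR2 ligand of the mouse, was lowest. Its ratio was -3.17 in mouse 1, -2.66 in mouse 4 and -1.98 in mouse 2, then -1.07 and -1.06 in mice 5 and 6 and -0.18 in mouse 3. Mice 1, 2 and 4 thus lay apart from mice 5 and 6, an order that Cxcl9 did not show, where mouse 6 ranked next after mice 1 and 2. The mean was -1.69 ± 1.12 (SD, n = 6), 3.22-fold apart (limma, adjusted p = 0.019). The call ended without mouse 2 (adjusted p = 0.0626) or mouse 4 (0.061), and the mean without mouse 3 was -1.99.

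Cxcl2 (MIP-2), which shares the receptor CXCR2, had values in 4 mice. They were -1.57 in mouse 1, -0.58 in mouse 4, -0.24 in mouse 6 and -0.18 in mouse 2. All were negative, and mouse 1 was far below the rest. The mean of -0.64 ± 0.64 (SD, n = 4) did not pass (limma, adjusted p = 0.113), with a 95% interval of -1.25 to -0.032. Without mouse 1 it was -0.33. Cxcl5 (LIX), made by epithelial cells, was at -0.87 in mouse 1, -0.56 in mouse 2, -0.22 in mouse 6, -0.084 in mouse 5 and 0.28 in mouse 4. Its mice lay on both sides of 0, and the mean of -0.29 ± 0.44 (SD, n = 5) did not pass (limma, adjusted p = 0.228, 95% interval -0.68 to 0.094), and it was -0.15 without mouse 1. Neither gene had a value in mouse 3.

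Cxcl15, the lung-specific ELR chemokine, showed another pattern. It was at -1.53, -1.54, -1.29, -1.28, -0.94 and -1.59 in mice 1 to 6, a narrow band that mouse 3 did not leave. The mean was -1.36 ± 0.25 (SD, n = 6), 2.57-fold apart, with the lowest adjusted p of the family (limma, 0.00163), and the call held without any 1 mouse (highest adjusted p = 0.0117). Its SD was 18.2% of its mean, against 56.3% for Cxcl9 and 66.3% for Cxcl1. In mouse 3 it was the fourth lowest of 10844 probes (rank 4), whereas Cxcl9 was at rank 2565 and Cxcl1 at rank 1679. The value in mouse 3 was 93.8% of the mean of the other mice for Cxcl15, 4.5% for Cxcl9 and 9.2% for Cxcl1.

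**Figure D2:**
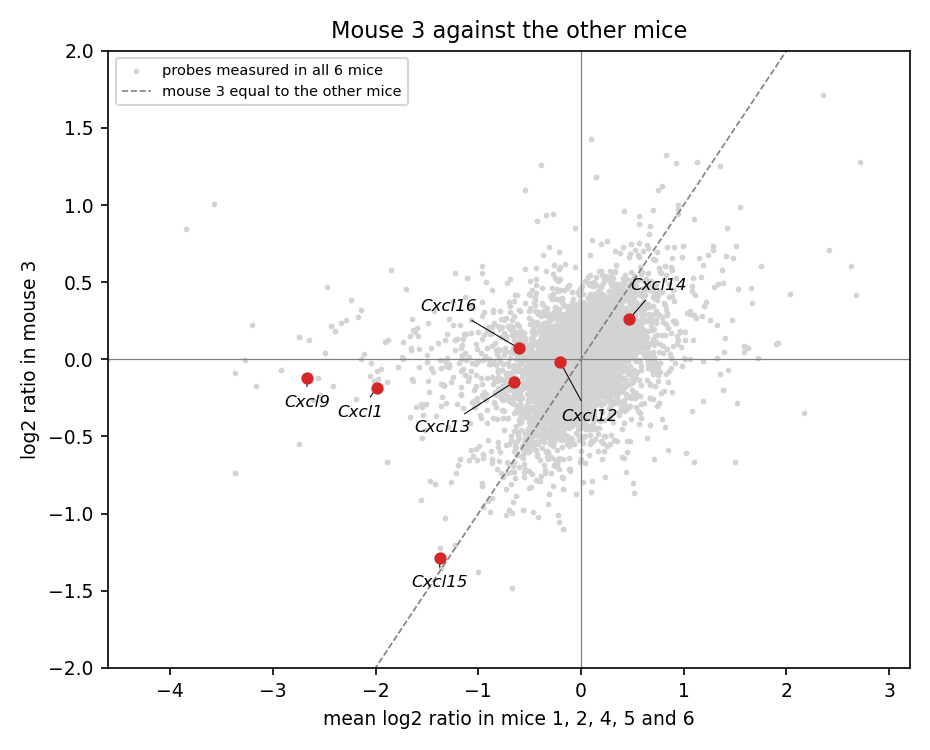
Log2 ratio in mouse 3 (vertical axis) against the mean log2 ratio in the other 5 mice (horizontal axis) for probes measured in all mice (grey), with the 7 members measured in all mice in red and the line of equal values dashed; the axes have different scales. Cxcl15 lies near the dashed line at -1.38 and -1.29, and Cxcl9 and Cxcl1 lie near 0 in mouse 3.

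Few probes on the negative side behaved like that of Cxcl15, and those on the positive side were not counted. Of 165 probes at -1 or below in the mean of the other 5 mice, 4 reached at least 80% of that mean in mouse 3, a limit set after the values were seen: Cxcl15, Calr (calreticulin, a chaperone of the endoplasmic reticulum), Lgi1 (a secreted protein best known from neurons) and Mroh4. The same 3 genes were the closest to Cxcl15 over the 6 mice, with root mean square differences in log2 ratio of 0.093 for Lgi1, 0.16 for Calr and 0.20 for Mroh4 among 7502 genes. Lgi1 had a mean of -1.34 ± 0.33 (SD, n = 6) and lay at -1.54, -1.64, -1.22, -1.35, -0.76 and -1.56 in mice 1 to 6. The probe of Lgi1 lies 18 rows after that of Cxcl15 in the table, and Smim23, 24 rows after it, was at -0.83 ± 0.34. Across the array, mean ratios of probes 18 rows apart had a Pearson r of 0.102 (8947 pairs), and 6 and 24 rows apart 0.133 and 0.106, against 0.0061 to 0.0274 at the distances 1 row more or less. These correlations are across probes, which are not independent. Whether signal of 1 of these spots enters the others was not tested. Of the other members, Cxcl5 alone had probes of larger mean and the same sign at these distances. They were Ccl11, 18 rows away, at -0.67 and Stat5a, 24 rows away, at -0.295. Many probes at these distances had no tested ratio and could not be compared, among them most of those around Cxcl15 and Cxcl16.

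**Figure D3:**
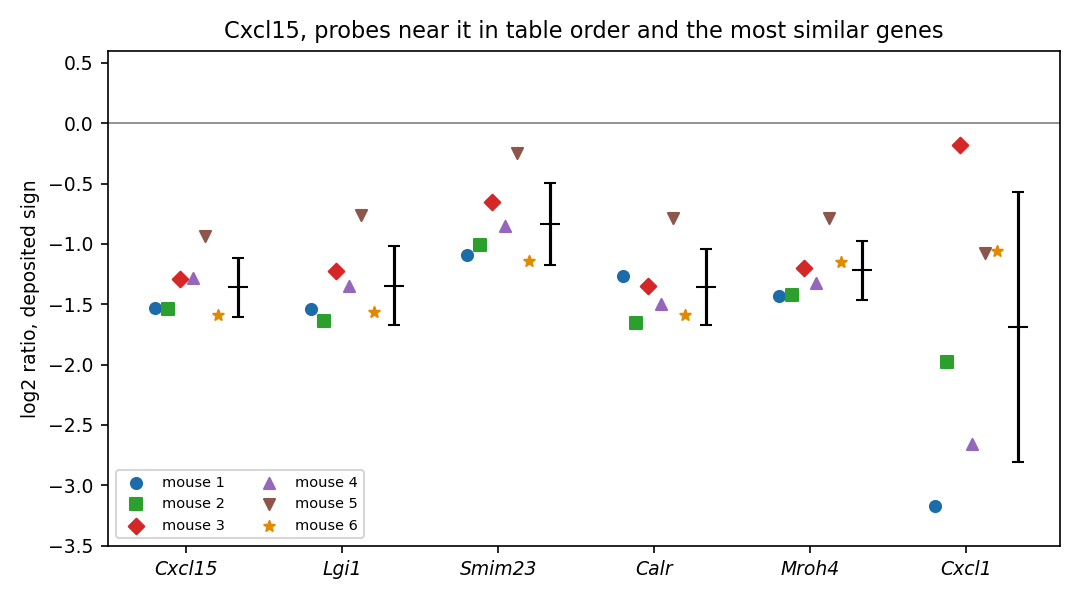
Log2 ratio (vertical axis, deposited sign) in each of the 6 OVA mice (symbols) for Cxcl15, for Lgi1 and Smim23 (18 and 24 rows after it in the table), for Calr and Mroh4, and for Cxcl1 as contrast; black bars give mean and SD. Lgi1 lies close to Cxcl15 in every mouse, whereas mouse 3 lies far above the other mice for Cxcl1.

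The homeostatic members lay on both sides of 0. Cxcl13, which guides B cells into follicles, ranged from -1.20 in mouse 1 through a median of -0.64 to -0.019 in mouse 5, negative in 6 of 6 mice, though mice 5 and 3 (-0.15) were near 0. Its mean was -0.57 ± 0.43 (SD, n = 6), 1.49-fold apart (limma, adjusted p = 0.03). The call ended without mouse 2 (0.0916), mouse 4 (0.0873) or mouse 6 (0.0754), and held without mouse 3 (-0.65, adjusted p = 0.0227). Cxcl14, a chemokine of epithelia and fibroblasts, was the one member on the positive side. It ranged from 0.029 in mouse 1 through a median of 0.36 to 0.98 in mouse 6, positive in 6 of 6 mice. Mouse 1, lowest for Cxcl9, Cxcl1, Cxcl13 and Cxcl16, was nearest to 0 here. The mean was 0.43 ± 0.33 (SD, n = 6), 1.35-fold apart (limma, adjusted p = 0.0336), and the call ended without mouse 2 (0.0919), mouse 4 (0.068), mouse 5 (0.0872) or mouse 6 (0.0564). Without mouse 3 it was 0.47 and held (adjusted p = 0.0406).

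Cxcl12, the stromal ligand that retains CXCR4-bearing cells, had the smallest ratio. It ranged from -0.46 in mouse 2 through a median of -0.13 to -0.019 in mouse 3, and its mean of -0.17 ± 0.15 (SD, n = 6) did not pass (limma, adjusted p = 0.0712, 95% interval -0.31 to -0.034). It passed with arrays weighted by quality (adjusted p = 0.0461), and without mouse 3 it was -0.20 (0.0582). Cxcl16 ranged from -1.24 in mouse 1 through a median of -0.41 to 0.07 in mouse 3, with mouse 5 at -0.046. The mean of -0.49 ± 0.50 (SD, n = 6) did not pass (limma, adjusted p = 0.0747). Without mouse 3 it was -0.60 and passed (adjusted p = 0.0411).

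**Figure D4:**
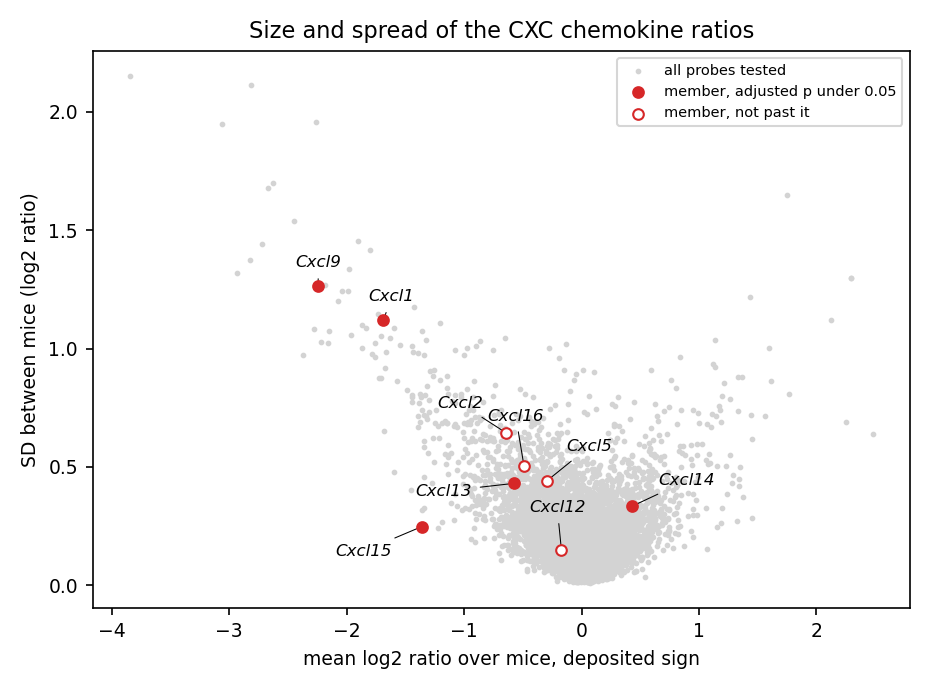
SD between mice (vertical axis) against the mean log2 ratio (horizontal axis, deposited sign) for all 11629 tested probes (grey) and the 9 measured members (red, filled where the limma adjusted p was under 0.05). Cxcl9 and Cxcl1 combine large means with SDs above 1, and Cxcl15 has an SD of 0.25 at a mean of -1.36.

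In order of mean ratio the members ran Cxcl9, Cxcl1, Cxcl15, Cxcl2, Cxcl13, Cxcl16, Cxcl5, Cxcl12 and Cxcl14. Differences within a mouse follow for some pairs of members measured in all mice, which leaves out Cxcl2 and Cxcl5. Cxcl9 minus Cxcl1 was -0.56 ± 0.90 (SD, n = 6), with 4 mice negative and mice 3 and 4 positive, so these neighbours did not differ beyond their spread. Cxcl9 was below Cxcl15 in 5 of 6 mice, by a mean difference of -0.88 ± 1.14, and above it by 1.17 in mouse 3. Cxcl1 minus Cxcl15 was -0.33 ± 1.07, with 4 negative and 2 positive mice. Cxcl13 and Cxcl16 differed by -0.081 ± 0.17, 3 mice on each side. Cxcl12 minus Cxcl14, the last neighbours in this order, was -0.60 ± 0.40, negative in 6 of 6 mice.

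Against the mean of the homeostatic members, Cxcl9 and the neutrophil-attracting pair were lower in every mouse. Cxcl9 minus the mean of Cxcl12, Cxcl13 and Cxcl14 was -2.14 ± 1.14 (SD, n = 6), from -3.28 in mouse 1 to -0.15 in mouse 3. The mean of Cxcl1 and Cxcl15 minus the same mean was -1.42 ± 0.42, from -1.93 in mouse 1 to -0.77 in mouse 3. Cxcl9 minus the mean of Cxcl1 and Cxcl15 was -0.72 ± 0.88, with 4 mice negative and mice 3 and 4 at 0.62 and 0.077. Cxcl2 and Cxcl5, which lack values in some mice, are not in that pair. With each of the 4 neutrophil-attracting members that had a value in the mouse, the difference from Cxcl9 was -1.22 ± 1.04, negative in 5 mice, with mouse 4 at -0.83. Whether mouse 4 was positive or negative thus depended on which members were averaged. Mouse 3 had no value of Cxcl2 or Cxcl5, so both versions average the same members there and its 0.62 could not change. In that mouse Cxcl9 minus Cxcl1 was 0.063 and Cxcl9 minus Cxcl15 was 1.17. The mean of those members minus the homeostatic mean was -0.92 ± 0.22, again negative in 6 of 6 mice. Differences between ratios within an array show unequal ratios alone. Unequal change and dye effects of single probes cannot be told apart in them. They were not tested because the roles were grouped with results known.

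By place in the genome, 7 coding CXC ligand genes follow each other on chromosome 5 in RefSeq's order: Cxcl5, Ppbp, Pf4, Cxcl3, Cxcl15, Cxcl1 and Cxcl2. Their mean ratios differed widely within this row. Cxcl5, Ppbp and Pf4 were at -0.29, -0.33 and -0.062 without a call, Cxcl3 matched no named probe, Cxcl15 and Cxcl1 were at -1.36 and -1.69, and Cxcl2 at the far end was at -0.64 without a call. Outside the row, Rassf6 on the side of Cxcl5 was at 0.25 ± 0.11 (limma, adjusted p = 0.0112). Afm, further out on that side, was at -0.039 without a call (limma, adjusted p = 0.53). The epidermal growth factor family members Epgn and Ereg, beyond Cxcl2, were at -0.085 and -0.90 (adjusted p = 0.225 and 0.0226). Around Cxcl9, the gene Naaa was at -0.98 (its second probe at -0.30) and Sdad1 at -0.46 on one side. Art3, between Cxcl9 and Cxcl10, was at 0.16, and all 3 passed (limma, adjusted p = 0.00606, 0.0427 and 0.0448). Over all probes 24.4% passed. The other flanking genes looked up there, Ppef2, Nup54, Scarb2 and Fam47e, had no tested probe. Cxcl11, the third ligand of CXCR3, is listed by RefSeq as a transcribed pseudogene. Its probe was at -0.21 ± 0.21 (SD, n = 6) without a call (limma, adjusted p = 0.0879).

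Of 11 receptors and scavengers listed, 10 were on the array and 7 measured, and 1 passed, which is 14.3% against 24.4% of all probes. That gene was Cxcr4, the receptor of Cxcl12, itself at -0.17. It was at -0.30, -0.19, -0.26 and -0.39 in mice 1, 4, 5 and 6, with a mean of -0.28 ± 0.085 (SD, n = 4, limma, adjusted p = 0.0196). Its call ended when any 1 of these 4 mice was left out (adjusted p between 0.0501 and 0.0618). Cxcr3, which binds Cxcl9, was at -0.072 ± 0.20 (n = 6), with 4 mice negative and 2 positive, and had no call (limma, adjusted p = 0.5). Cxcr2, which binds the ELR ligands, was at -0.19 ± 0.095 (n = 4, limma, adjusted p = 0.0627), and passed without mouse 3 (-0.23, adjusted p = 0.0463) or with array weights (0.0394). Cxcr6, the receptor of Cxcl16, was at -0.18 ± 0.18 (n = 6, limma, adjusted p = 0.0977). Cxcr5, the receptor of Cxcl13, had no value on any array. Of 7 further ligands, 3 were measured and 0 passed (limma), against 24.4% of all probes, a count too small to set against that share. Cxcl11 alone of the 3 had an unadjusted p under 0.05, against 39.2% of all probes. Ppbp, a platelet chemokine, had the largest mean of these, -0.33 ± 0.47 (SD, n = 6, limma, adjusted p = 0.172), and lay at -1.10 in mouse 3, without which its mean was -0.17.

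Genes of interferon signalling, the pathway that induces Cxcl9, had 3 negative calls and 1 positive call among 13 measured of 17 listed, 30.8% against 24.4% of all probes, with a median of -0.24. Socs1, a feedback inhibitor of cytokine receptors, was at -1.24 ± 0.74 (SD, n = 6, limma, adjusted p = 0.0142), from -2.42 in mouse 1 to -0.37 in mouse 3, and its call ended with unmoderated variance (0.0585). Irf9, a subunit of the interferon-stimulated factor, was at -0.86 ± 0.45 (adjusted p = 0.00993) and the kinase Jak2 at -0.74 ± 0.32 (adjusted p = 0.00675), both negative in 6 of 6 mice and least so in mouse 3. Ifng itself lay on the other side at 0.23 ± 0.11 (n = 6), positive in 6 of 6 mice (limma, adjusted p = 0.0162), and its call ended without mouse 2 (0.0549) or mouse 4 (0.0582).

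Genes of the NF-kB, IL-1, TNF and IL-17 pathways, which induce ELR ligands such as Cxcl1, had 5 calls among 12 measured of 24 listed. All 5 calls were negative, a share of 41.7% against 24.4% of all probes, and the list median was -0.17. Il6, a cytokine of acute inflammation, was lowest in the same 3 mice as Cxcl1, at -2.41, -2.19 and -1.27 in mice 1, 4 and 2 and between -0.92 and -0.015 in the others. Its mean was -1.25 ± 0.91 (SD, n = 6, limma, adjusted p = 0.0252), and the call ended without mouse 2 (0.0732), mouse 4 (0.0749) or mouse 6 (0.0561). The cytokine Tnf was at -1.19 ± 0.68 (n = 6, limma, adjusted p = 0.0126), negative in 6 of 6 mice, and its call ended with unmoderated variance (0.0548). Its receptor Tnfrsf1b was at -0.80 ± 0.54 (n = 6, limma, adjusted p = 0.0216), a call that ended without mouse 2 (0.0694), mouse 4 (0.0604) or mouse 5 (0.0549). Il1r1, the signalling IL-1 receptor, was at -0.60 ± 0.13 (n = 6, limma, adjusted p = 0.00231) and mouse 3, the highest at -0.43, lay close to the others, which ran from -0.80 to -0.51. Il1b matched no named probe, and that of Il17a had a value on 1 array.

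Proteases that trim or shed chemokines had 3 negative calls among 10 measured of 11 listed, 30% against 24.4% of all probes. Macrophage elastase Mmp12, which cleaves ELR chemokines, was at -1.39 ± 0.98 (SD, n = 5, limma, adjusted p = 0.0325), between -2.35 and -1.07 in 4 mice and at 0.16 in mouse 3. The call ended without mouse 1 (0.0578), mouse 2 (0.0528, a mouse in which Mmp12 had no value), mouse 4 (0.0954), mouse 5 (0.0905) or mouse 6 (0.0956). The neutrophil collagenase Mmp8 was at -0.41 ± 0.20 (n = 6, limma, adjusted p = 0.0104) and the membrane protease Mmp14 at -0.31 ± 0.19 (n = 6, limma, adjusted p = 0.0201). The call of Mmp14 ended without mouse 2, 4, 5 or 6 (adjusted p between 0.051 and 0.0676). The 2 probes of Adam10, the sheddase of Cxcl16, disagreed. The one with values in all mice was at -0.087 ± 0.14 without a call (n = 6, limma, adjusted p = 0.29), and the other was at -0.63 ± 0.42 and passed (n = 5, limma, adjusted p = 0.0285). Of 8 lymphoid cytokines and receptors that act beside Cxcl13, 4 were measured and 1 passed, 25% against 24.4% of all probes. This was the B cell survival factor Tnfsf13b (BAFF) at -0.66 ± 0.37 (SD, n = 6, limma, adjusted p = 0.0121), a call that ended with unmoderated variance (0.0518). Without mouse 3 the 13 called genes named from the pathway lists kept their calls, and the means moved away from 0 for 12 of them, as for Il6 (-1.50) and Mmp12 (-1.78).

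**Figure D5:**
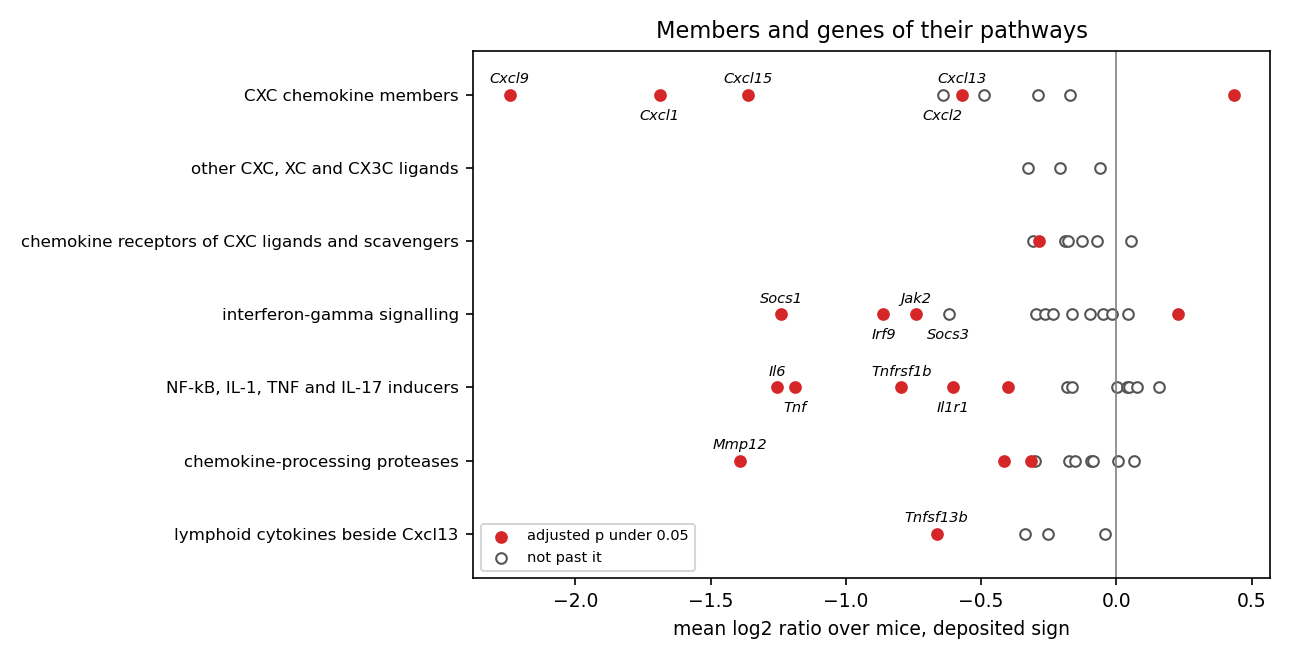
Mean log2 ratio over mice (horizontal axis, deposited sign) of the 9 members and of the measured genes of 6 pathway lists (rows), filled red where the limma adjusted p was under 0.05; genes at 0.5 or more from 0 are named. Cxcl9 and Cxcl1 lie further from 0 than every gene of these lists.

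Markers of other cells are given beside these ratios, with the share called over all probes at 24.4% (12.3% negative and 12% positive). In bulk lung RNA, a change in the number of cells of a type and a change in RNA per cell cannot be told apart. Of 12 measured neutrophil genes 3 passed, all negative, a share of 25% and near that of all probes, with a list median between -0.44 in mouse 1 and -0.053 in mouse 3. Of 7 macrophage genes 3 passed (42.9%), all negative, with a median of -0.93 in mouse 1 and 0.16 in mouse 3. Of 8 genes of T and NK cells 1 passed, positive (12.5%), and of 7 B cell genes 0 passed (limma, 1 with an unadjusted p under 0.05), both below the share of all probes. Of 7 stromal genes 3 passed (42.9%), the collagens Col1a1 at -1.45 and Col3a1 at -1.67 and the receptor Pdgfra at 0.45. Of 5 endothelial genes 3 passed (60%), all positive, with a median of 1.04 in mouse 1 and 0.30 in mouse 3. All 6 measured heart muscle genes passed on the positive side (100%), with a median of 2.32 in mouse 1 and 0.16 in mouse 3, and so did 3 of 5 adipocyte genes (60%). Mouse 1 was thus at one end and mouse 3 at the other for heart muscle and macrophage genes, as they were for Cxcl9 and Cxcl1. The adipocyte median was instead highest in mouse 6 (2.37, against 1.97 in mouse 1) and the endothelial one in mouse 2 (1.05). Over all probes, ratios were also widest on the array of mouse 1 (SD 0.47) and narrowest on that of mouse 3 (0.21). The part of these markers in the chemokine ratios was not tested.

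The genes closest to each member over the 6 mice, by root mean square difference in log2 ratio among 7502 genes measured in all mice, differed between members. For Cxcl9 they were Gm9706 (0.33), the interferon-inducible Ifi204 (0.34) and Oasl1 of the oligoadenylate synthetase family (0.40). For Cxcl1 they were Rgs1, a regulator of chemokine receptor signalling (0.24), Knstrn of the mitotic spindle (0.40) and Agr2 of mucous cells (0.42). Cxcl13 lay nearest to Gps2 (0.10), Rrm2 (0.11) and Srgn (0.12), and Cxcl16 nearest to H2-DMa of class II antigen loading (0.096), Zfp398 (0.099) and Pgf (0.12). Cxcl14 lay nearest to Ndufa5 (0.11), Clpp (0.14) and Cdh17 (0.14), and Cxcl12, whose ratios are small, to Med8 (0.057), Nxf7 (0.061) and Car2 (0.064). No gene came as near to Cxcl9 or Cxcl1 as those next to the weaker members, whose values span a smaller range.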

How the data were processed

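The authors deposited 1 log ratio per probe and array, read here as log2 from its range, since the base is not stated. Not given in the sources used here are scanner, background correction, normalization, filter and dyes. The table had 17280 probes, of which 14722 had 1 gene symbol in the platform annotation, 1 several and 2557 none. Symbols were updated for 14445 through RefSeq (GRCm38.p6) and 277 kept. Rows of 10 sequences each repeated 17 times (170) and rows with plant symbols (4) were left out. Arrays were centred on their median over the 8663 probes measured on all. Probes with values on at least 4 arrays were tested for a mean other than 0 by limma 3.58.1, run in R 4.3.3 (intercept, eBayes, two-sided, Benjamini-Hochberg at 0.05), after a test on simulated data. The number of arrays limits the precision. The labels give 1 mouse per array. A gene with several probes was represented by the one with values on most arrays. Members, lists and roles were chosen with earlier results of these data known. Named were all members, up to 4 called genes (or 2 uncalled) per pathway list, and the 3 genes nearest each member. Cxcr2, Cxcr3, Cxcr6, Adam10, Smim23, the genes flanking the chromosome 5 clusters, Ccl11, Stat5a and the marker genes were added to these with their values already known. Figures used matplotlib 3.10.9.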

Additional observations from a re-analysis of the deposited data

Results flagged for a closer look

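Among 28 genes whose mice were checked for a sample far from the rest (Dixon's test at 95%), 1 was past the critical value. This was the protease Mmp14, at 0.064 in mouse 3, while the other mice lay between -0.48 and -0.34. The mean of every neutrophil-attracting member with a value, minus the homeostatic mean, was past it too, with mouse 1 at -1.36 and the other mice between -0.87 and -0.77. That mean holds other members in mice 3 and 5, where Cxcl2 or Cxcl5 had no value. At this level chance alone puts some groups past it.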

How the results depend on the processing

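The 9 measured members, the named genes of the pathway lists other than Pf4 (not run) and the 4 genes beside or like Cxcl15 kept the sign of their mean under the alternatives that gave them a value. The 5 calls among the members stayed 5 in number without centring, with quantile normalization or with robust eBayes, and became 6 with array weights. They fell to 1 with unmoderated variance and 1 at an adjusted p of 0.01, Cxcl15 in both, and to 3 with a floor of 2-fold. Leaving out single mice gave 2 to 6 calls among members: 2 without mouse 2 or mouse 4 (Cxcl9 and Cxcl15), 3 without mouse 6, and 6 without mouse 3. Over all probes, 2832 calls became 1444 with unmoderated variance, 746 at 0.01, 174 with the 2-fold floor and 1784 without probes 6, 18 or 24 rows from a stronger probe of their sign, which also removes probes from the test. They ranged from 1332 to 3017 when single mice were left out (1332 without mouse 4, 1374 without mouse 2, 1719 without mouse 6). The causes were not tested. Restricting that omission to stronger probes at least 2-fold apart, chosen after seeing the data, left 2650. The difference between Cxcl9 and the mean of Cxcl1 and Cxcl15 (-0.72) moved by less than its SD of 0.88, a limit wider than the difference itself. That includes the move to -1.22 with Cxcl2 and Cxcl5 where measured, an alternative chosen after seeing the data. Adam10 passed as the mean of its probes (-0.30). No paired analysis was possible because only 1 group of mice was hybridised, against a pool without replicate numbers. Signal over background is unknown, so missing values cannot be told from low signal.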
